A study of Mus musculus with 63 samples.

Results

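Livers of KO males, whose hepatocytes were directed to lose Hcfc1, were set against livers of WT males on days 3 and 4 after the first tamoxifen injection. These are the first days after the last injection. Libraries were chosen by genotype and day only, 4 KO and 4 WT with 2 per genotype on each day, which is 8 of the 63 libraries of a time course. KO minus WT was taken within each day and averaged over both days, after each library had been centred on its median gene. The study sequenced poly(A) RNA of single livers from KO males, Het females and WT males between day 0 and day 14.

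KO males carried the Alb-Cre-ERT2 transgene, a Cre recombinase driven by the albumin promoter and activated by tamoxifen, with the Hcfc1 lox/Y genotype, meaning that the single X-linked copy is flanked by lox sites. Their genotype label reads Hcfc1 hepKO/Y. The protocol gives the WT males as Hcfc1 lox/Y mice without Cre, while their genotype label reads C57BL/6. WT males therefore lacked the transgene, and an effect of active Cre and an effect of Hcfc1 loss cannot be told apart in this design. Both genotypes received 1 mg of tamoxifen per mouse by intraperitoneal injection 3 times at 24-hour intervals, so tamoxifen itself was shared by KO and WT. All mice were 10 to 14 weeks old, ate breeder chow and were killed soon after lights-on. The albumin promoter is active in hepatocytes, and the other cells of the liver homogenate should keep the Hcfc1 allele intact.

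HCF-1, the protein made from Hcfc1, is a nuclear scaffold that joins promoter-bound transcription factors such as THAP11, ZNF143, GABP, YY1 and the E2F proteins to enzymes that modify histones. It is known for its part in entry into the cell cycle and at promoters of genes for mitochondria and protein synthesis. Hepatocytes make most plasma proteins, build bile acids and detoxify lipophilic compounds, and they divide rarely unless the liver is challenged.

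Estimated depth was 28.4M to 50.4M reads per KO library and 28.4M to 55.3M per WT library, so 1 read over 2 kb of exon was worth 0.0101 to 0.0234 RPKM. Of 15616 genes in the table, 10343 reached a log2 RPKM of at least 0 in at least 4 of the 8 libraries and were tested, and 11 of these were listed at 0 in some library. Across tested genes, libraries of 1 genotype correlated at r = 0.969 to 0.984, and KO with WT libraries at r = 0.934 to 0.956. All 10 hepatocyte markers were tested and well above 0 in both genotypes, among them the nuclear receptor Hnf4a at 140.4 to 151 RPKM in KO livers and 131 to 150.4 RPKM in WT livers. Their summed level was 21848 to 25221 RPKM in KO livers and 74080 to 89782 RPKM in WT livers, and most of that gap lay in Alb. The KO library of day 3, replicate 1, stood apart: 66 tested genes lay more than 1.5 log2 units from the median of its genotype, against 5 to 15 in the other 7 libraries. In it the acute phase genes Saa1, Saa2 and Lcn2 reached 9860, 10428 and 1400 RPKM. Several results that rest on it are given with and without it. Levels below are RPKM scaled to a common median. Values of 4 libraries follow the order D03_1, D03_2, D04_1, D04_2, where each name gives the day and then the replicate. Differences are KO minus WT in log2 units with their standard error, and adjusted p-values are limma's with Benjamini-Hochberg adjustment over all tested genes. Genes with a value under 0.05 are described as risen or fallen in KO livers. These p-values measure the spread between single livers.

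Hcfc1 itself was higher in KO livers. Its level was 15.5, 11.5, 14.2 and 12.3 RPKM in KO livers, against 6.40, 6.10, 6.11 and 5.79 RPKM in WT livers. The groups did not overlap, with a log2 difference of 1.12 ± 0.14 (adjusted p = 1.36e-06). The table gives 1 value for the whole gene (mm9, chromosome X, 71188131 to 71211696, minus strand), not for the lox-flanked part, so it does not check the deletion. On days 1 and 2 the difference was 0.49, and the step to days 3 and 4 did not pass the test (0.63 ± 0.20, adjusted p = 0.0724).

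A large share of the liver transcriptome differed, in both directions to the same extent. In KO livers 2231 genes rose (21.6% of those tested) and 2233 fell (21.6%). Among these, 1730 risen and 1865 fallen genes had no overlap of the 4 KO and 4 WT libraries. Over all tested genes, 2000 had no overlap upward (19.3%) and 2095 downward (20.3%). Most changes were modest: the median size was 0.51 for risen and -0.55 for fallen genes, while 39 rose and 63 fell by more than 2 log2 units. The even split depends on the scaling. On the deposited scale, without centring, the median gene was 0.31 log2 units higher in KO, 4469 genes rose (43.2%) and 745 fell (7.2%). All 2231 rises and 745 of the falls held on both scales, and no call turned round. Fewer cells of a type and less RNA per cell cannot be told apart in these homogenates.

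The names in the deposited sample list carry a mark, B_1 for replicate 1 and B_2 for replicate 2 on days 3 to 8, whose meaning is not given in the sources used here. The 8 libraries therefore divide into 2 KO and 2 WT libraries of each mark. Fitted within a mark over days 3 to 8, with 1 mean per genotype and pair of days, 896 genes rose and 1015 fell in the B_1 libraries, and 1257 rose and 1150 fell in the B_2 libraries. Of 215 results for named genes of days 3 and 4, 130 kept their call in the B_1 libraries and 171 in the B_2 libraries, and none turned round in either. Because the mark follows the replicate number, the per-library values below show both sets.

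**Figure D1:**
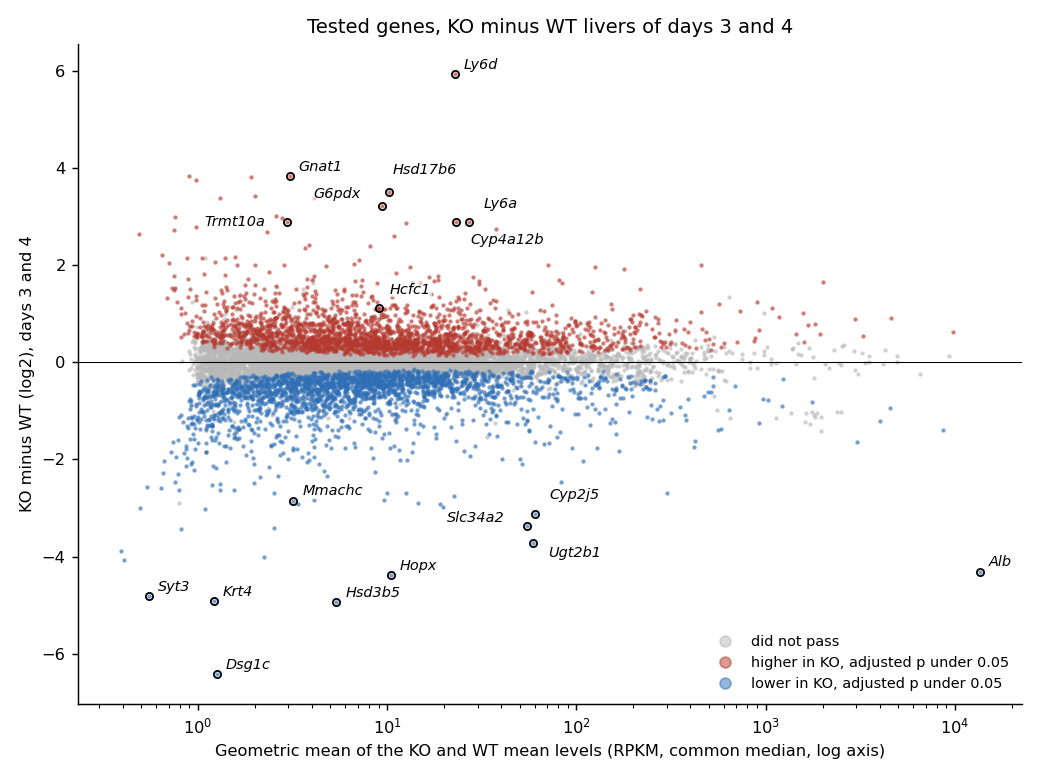
Each point is 1 of 10343 tested genes, except that the 11 listed at 0 in some library, Mir290b among them, are not drawn. The horizontal axis is the geometric mean of its KO and WT mean levels (RPKM scaled to a common median, log axis) and the vertical axis its KO minus WT difference (log2) on days 3 and 4. Red points rose, blue points fell and grey points did not pass an adjusted p of 0.05; Alb stands alone at the far right with a difference of -4.31.

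The 15 largest rises and 15 largest falls named below were drawn only from genes without overlap of the genotypes. Lack of overlap in them was a condition of naming and is no separate result. The most abundant transcript of WT livers showed one of the largest falls. Alb, which encodes serum albumin and whose promoter drives the Cre transgene, stood at 2847, 2661, 3538 and 3092 RPKM in KO livers, against 57201, 51138, 64575 and 67205 RPKM in WT livers. Every KO library lay far below every WT library, with a difference of -4.31 ± 0.33 (adjusted p = 4.38e-10). This fall was already in place on days 1 and 2, at -3.90, and on day 0 the difference of -0.88 did not pass (adjusted p = 0.76).

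Several other large falls were enzymes of hepatocytes. Ugt2b1, a glucuronosyltransferase that joins glucuronic acid to drugs and steroids, measured 26.4, 17.6, 12.4 and 10.9 RPKM in KO livers, against 213, 190.2, 231 and 200.4 RPKM in WT livers. The difference was -3.72 ± 0.33 (adjusted p = 4.24e-09), though near-identical Ugt2b copies can share reads and make the split between them uncertain. Cyp2j5, a cytochrome P450 that oxidises arachidonic acid, was at 38.5, 15.8, 11.9 and 19.3 RPKM in KO livers, against 159, 163, 176 and 174 RPKM in WT livers. Its difference was -3.12 ± 0.37. Hsd3b5, a male-biased steroid-metabolising enzyme, gave 1.43, 1.73, 0.340 and 0.272 RPKM in KO livers, against 81.2, 13.9, 15.6 and 11.4 RPKM in WT livers. Its difference of -4.94 ± 1.01 (adjusted p = 0.000342) was -4.30 without WT_D03_1 and -5.57 without WT_D03_2. Hsd3b5 also declined with time in WT livers, which averaged 201 RPKM on day 0, 67.4 on day 1 and 44.5 on day 2.

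A second set of large falls concerned genes that had risen in WT livers during the injections. Krt4, a keratin of stratified epithelia, was at 0.193, 0.267, 0.212 and 0.197 RPKM in KO livers, against 5.21, 5.51, 6.52 and 9.71 RPKM in WT livers (-4.92 ± 0.52). Its WT mean was 0.0339 RPKM on day 0 and 10.4 RPKM on day 2. Slc34a2, a sodium-phosphate cotransporter, was at 15.9, 17.2, 21.2 and 13.2 RPKM in KO livers, against 116, 194, 229 and 169 RPKM in WT livers (-3.37 ± 0.36). WT livers averaged 1.05 RPKM of Slc34a2 on day 0 and 150.2 RPKM on day 2. On day 2 KO livers averaged 0.319 RPKM of Krt4 and 9.46 RPKM of Slc34a2, so the increase over the injection days was smaller in KO livers for both genes. Dsg1c, a desmosomal cadherin, had the largest fall among genes above 0 in every library. Its level was 0.434, 0.139, 0.0484 and 0.0474 RPKM in KO livers, against 7.02, 10.1, 9.91 and 10.7 RPKM in WT livers (-6.42 ± 0.38, adjusted p = 1.08e-11).

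The remaining large falls ran from low to moderate levels. Syt3, a synaptotagmin that senses calcium in membrane fusion, fell by 4.81 ± 0.34, with KO levels of 0.103, 0.364, 0.0632 and 0.0168 RPKM, against WT levels of 2.04, 2.26, 2.43 and 2.21 RPKM. Hopx (-4.38 ± 0.33), Adh7 (-4.08), Plekhb1 (-4.01), Mypop (-3.89), Acsm2 (-3.44) and Tmem200b (-3.42) were also among the 15 largest falls. At least Syt3 and Adh7, like Krt4 and Dsg1c above, were tested only through their WT level. Low KO values were also present for Mypop (0.175 RPKM in KO_D03_2) and Acsm2 (0.123 RPKM in KO_D04_2). Hopx is a homeodomain-only cofactor, Adh7 an alcohol dehydrogenase of stomach epithelium and Acsm2 a mitochondrial acyl-CoA synthetase. Mir290b was listed at 0 in 2 KO libraries and at 1.36 and 0.743 RPKM in the others, against 1.55 to 2.42 RPKM in WT livers, and no fold is given for it.

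Among the rises, Ly6d was far ahead. This small cell-surface protein, known as a marker of early B cells and of squamous epithelium, measured 138, 121, 154 and 311 RPKM in KO livers, against 2.65, 1.97, 4.36 and 2.47 RPKM in WT livers. The difference was 5.94 ± 0.38 (adjusted p = 2.75e-11). Other genes of the Ly6 family on the same list of largest rises were Ly6a at 2.89 ± 0.26 and Ly6c1 at 3.38 ± 0.40. Ly6a was at 21.4, 49.8, 124 and 136 RPKM in KO livers, against 7.84, 8.50, 8.34 and 10.8 RPKM in WT livers, so both day 4 values in KO exceeded both day 3 values. Ly6a and Ly6c1 have close copies in the genome, and reads may be split between them.

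Trmt10a, a methyltransferase that modifies guanosine in tRNA, had the most precise of the large rises. It was at 8.07, 6.34, 9.17 and 8.63 RPKM in KO livers, against 1.12, 0.897, 1.18 and 1.14 RPKM in WT livers (2.89 ± 0.10, adjusted p = 2.17e-16). Gnat1, a G-protein subunit of rod photoreceptors, stood at 15.02, 9.07, 8.16 and 12.1 RPKM in KO livers, against 1.52, 0.635, 0.492 and 0.691 RPKM in WT livers (3.83 ± 0.34). Both genes were drawn from those without overlap, so their separation is no separate result.

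G6pdx, glucose-6-phosphate dehydrogenase, opens the pentose phosphate pathway and supplies NADPH. It measured 11.3, 47.2, 37.8 and 25.2 RPKM in KO livers, against 2.19, 3.08, 3.12 and 3.08 RPKM in WT livers (3.23 ± 0.32). On day 0 the G6pdx difference was already 1.56 ± 0.46. Hsd17b6, a dehydrogenase of retinoids and androgens, was at 24.2, 24.5, 29.8 and 36.8 RPKM in KO livers, against 0.877, 2.91, 1.67 and 8.93 RPKM in WT livers. Its difference of 3.51 ± 0.54 was 2.91 without WT_D04_1 and 4.12 without WT_D04_2. As members of the largest rises, both genes were named on condition that the genotypes did not overlap.

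The rest of the 15 largest rises were Gldn (3.83), the adaptor Stap1 (3.82), the actin bundler Pls1 (3.75), Flrt1 (3.43), the clock-controlled factor Dbp (3.02), Adam11 (2.99), the ferritin receptor Scara5 (2.97) and Cyp4a12b (2.89). At least Pls1 and Flrt1 were tested only through their KO level. Low WT values were also present for Gldn (0.463 RPKM in WT_D04_1), Stap1 (0.657 RPKM in WT_D04_2) and Adam11 (0.934 RPKM in WT_D04_1). Dbp was at 6.85, 6.22, 3.58 and 12.0 RPKM in KO livers, against 1.86, 0.736, 0.543 and 0.575 RPKM in WT livers. Cyp4a12b, a male-biased fatty acid hydroxylase, gave 35.1, 89.1, 52.6 and 71.0 RPKM in KO livers, against 10.0, 11.9, 3.43 and 9.36 RPKM in WT livers. Its copy Cyp4a12a can share its reads, so the split between them is uncertain.

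**Figure D2:**
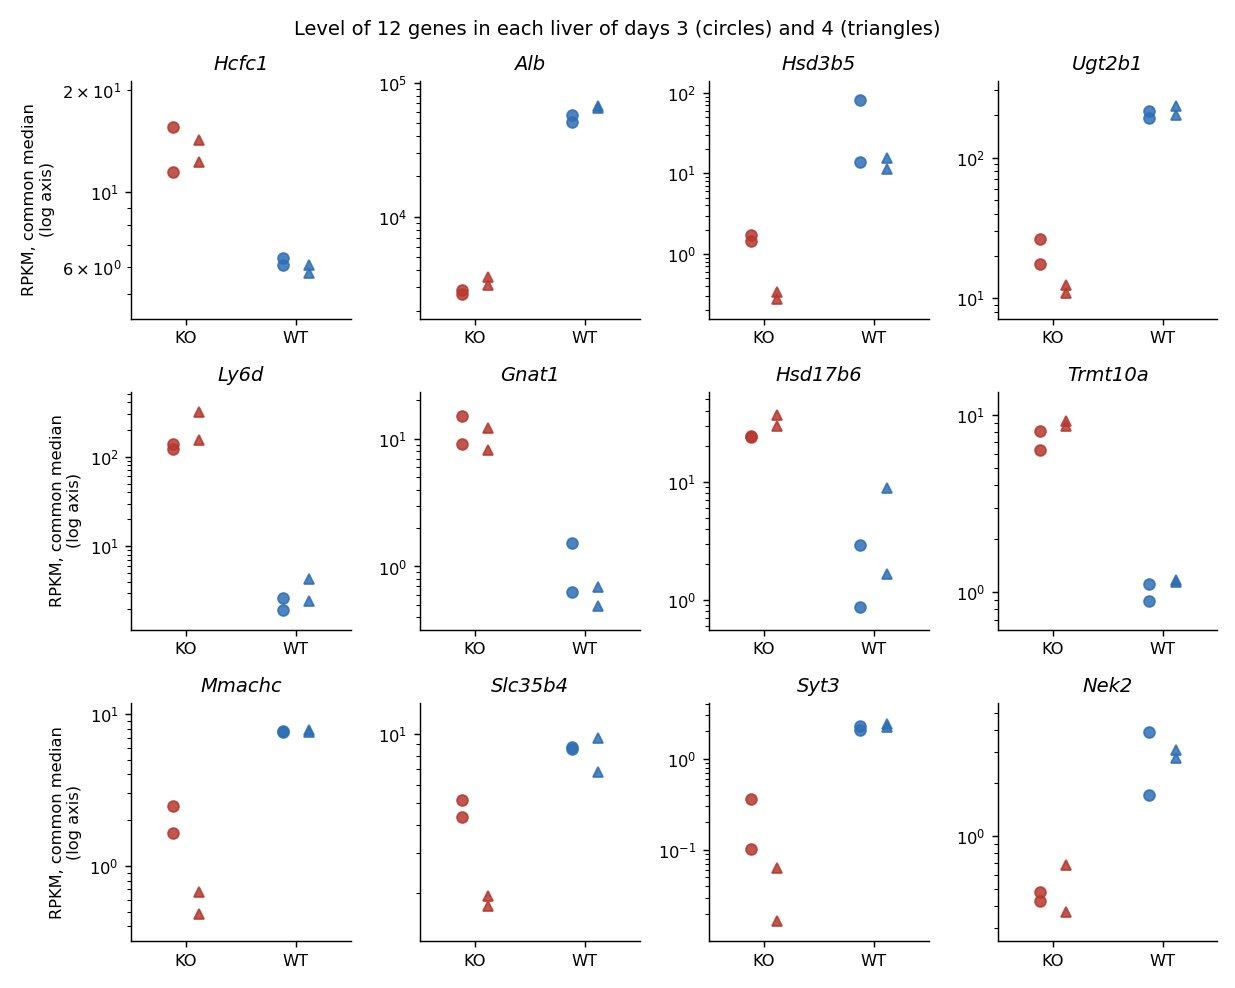
Level (RPKM scaled to a common median, log axis) of 12 genes in each KO (left) and WT (right) library, with circles for day 3 and triangles for day 4. KO and WT libraries do not overlap for any of the 12, from Hcfc1 with a difference of 1.12 to Ly6d with 5.94 upward and Hsd3b5 with -4.94 downward. For the largest rises and falls among the 12, this was a condition of naming.

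Counts for gene lists are to be read against all tested genes, of which 21.6% rose and 21.6% fell (43.2% and 7.2% on the deposited scale). Members are named by their smallest p, a choice that favours genes without overlap, so their lack of overlap is no separate result. Beyond albumin, secreted plasma proteins moved in both directions, at shares near these. Of 33 tested genes for albumin, apolipoproteins and carrier proteins, 6 rose and 7 fell (18 and 6 on the deposited scale), with a median difference of 0.01, against 0.01 over all tested genes. Afm, which carries vitamin E, was at 107, 103, 89.8 and 109.9 RPKM in KO livers, against 225, 234, 219 and 243 RPKM in WT livers (-1.17 ± 0.15). Serpina1e, an alpha-1-antitrypsin with near-identical copies, was at 9415, 6025, 3181 and 3586 RPKM in KO livers, against 17469, 11898, 11522 and 12826 RPKM in WT livers (-1.39 ± 0.21). Neither gene overlapped between the genotypes.

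Complement and coagulation genes were likewise mixed, with 13 risen (35.1%) and 9 fallen (24.3%) of 37 tested (21 and 5 on the deposited scale). The fallen ones included Klkb1, prekallikrein, at 54.5, 29.2, 36.4 and 32.0 RPKM in KO livers, against 114, 113, 122.7 and 122.4 RPKM in WT livers (-1.68 ± 0.19). F13b (-1.13 ± 0.10) and F9 (-0.72 ± 0.09), subunits or proteases of the clotting cascade, fell too. Mbl2, a mannose-binding lectin, rose by 1.20 ± 0.15, with 512, 824, 1116 and 1047 RPKM in KO livers, against 379, 379, 383 and 323 RPKM in WT livers. Acute phase genes gave 6 rises and 1 fall among 24 tested (11 and 1 on the deposited scale). Without WT_D03_1 the rises numbered 3, and without KO_D03_1 the falls numbered 3. The summed level of acute phase genes ranged from 10508 to 54088 RPKM in KO livers, against 15564 to 19582 RPKM in WT livers, and the KO maximum was the library of day 3 replicate 1 that stood apart.

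Conjugating and bile acid enzymes moved in both directions, and the balance of the counts turned with the scaling. Of 22 tested genes of glucuronidation and sulphation, 10 fell and 3 rose (8 and 9 on the deposited scale), and 8 of these falls were members of the Ugt2 family, a feature noted after the values were seen. Ugt2b37 was at 0.907, 1.07, 0.966 and 1.01 RPKM in KO livers, against 6.09, 5.604, 7.25 and 6.77 RPKM in WT livers (-2.70 ± 0.25). Sult1d1, a sulphotransferase, fell by 1.33 ± 0.13. Among bile acid genes, 6 of 19 fell and 5 rose (4 and 8 on the deposited scale). Baat, which joins bile acids to taurine, was at 48.3, 40.1, 44.8 and 52.4 RPKM in KO livers, against 135, 136, 131 and 135 RPKM in WT livers (-1.54 ± 0.11, adjusted p = 1.69e-10). Cyp7b1, the oxysterol hydroxylase of the alternative bile acid pathway, fell by 1.76 ± 0.29, and the hydroxysteroid dehydrogenase Akr1c6 by 1.74 ± 0.15. In both genes all KO libraries were below all WT libraries.

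Carriers of bile gave 6 rises (33.3%) and 2 falls (11.1%) among 18 tested genes (8 and 2 on the deposited scale). Slco1b2, which takes bile acids and drugs up from blood, was at 275, 145, 177 and 177 RPKM in KO livers, against 410.2, 407, 452 and 434 RPKM in WT livers (-1.18 ± 0.18). Slc22a7, an organic anion transporter, rose by 1.51 ± 0.22, with 40.5, 59.8, 58.3 and 65.1 RPKM in KO livers, against 23.7, 18.6, 15.4 and 20.2 RPKM in WT livers. Neither overlapped.

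Amino acid breakdown was divided as well, with 8 risen and 9 fallen of 36 tested genes (12 and 4 on the deposited scale). Arg1, the arginase that ends the urea cycle, was at 317, 256, 231 and 211 RPKM in KO livers, against 572, 516, 634 and 558 RPKM in WT livers (-1.18 ± 0.15). Sds, serine dehydratase, fell by 2.04 ± 0.31. Hpd, a dioxygenase of tyrosine breakdown, rose by 1.12 ± 0.19, with 1321, 1597, 1659 and 1798 RPKM in KO livers, against 589.96, 849, 745 and 746 RPKM in WT livers. The 3 genes had no overlap between the genotypes.

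Cytochrome P450 genes gave 14 rises (27.5%) and 18 falls (35.3%) of 51 tested (19 and 10 on the deposited scale). The falls numbered 13 without KO_D03_1 or KO_D04_1, 11 without WT_D03_2 and 10 without WT_D04_2. The rises numbered 9 without any 1 of KO_D03_2, WT_D03_1, KO_D04_2 or WT_D04_1. Cyp2j9 was at 1.13, 0.590, 0.586 and 0.523 RPKM in KO livers, against 3.25, 2.96, 2.72 and 2.32 RPKM in WT livers (-2.05 ± 0.24). Cyp2c44 rose by 0.83 ± 0.14.

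Male-biased targets of growth hormone showed a low median of -1.03 over 38 tested genes, of which 10 fell and 3 rose (9 and 4 on the deposited scale). Major urinary protein genes (Mup) make up much of this list and are so alike that reads cannot be assigned to single copies with certainty. Ghr, the growth hormone receptor, was at 86.1, 75.5, 76.8 and 76.4 RPKM in KO livers, against 124, 133, 136 and 132 RPKM in WT livers (-0.74 ± 0.11). Stat5b, the transcription factor that growth hormone activates, was at 12.2, 12.2, 12.7 and 11.8 RPKM in KO livers, against 17.5, 22.5, 21.6 and 22.0 RPKM in WT livers (-0.77 ± 0.11). Igfbp2, which binds insulin-like growth factors, rose by 1.96 ± 0.28, with 188, 244, 249 and 261 RPKM in KO livers, against 78.1, 82.8, 26.3 and 76.8 RPKM in WT livers. On day 0 the Igfbp2 difference was 0.93 ± 0.40. No overlap was present for any of the 3.

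Genes of fat synthesis tended upward, unevenly between the libraries. Of 24 tested, 11 rose and 1 fell (17 and 1 on the deposited scale). Without KO_D03_2 these counts were 6 and 2, and none rose within the B_1 libraries, against 10 within the B_2 libraries. Acly, ATP-citrate lyase, which makes cytosolic acetyl-CoA, was at 128, 444, 571 and 345 RPKM in KO livers, against 69.5, 86.8, 99.8 and 88.3 RPKM in WT livers (1.93 ± 0.31, adjusted p = 2.09e-05). Its lowest KO value was that of day 3 replicate 1, which still exceeded every WT value. Fads2, a desaturase, rose by 1.00 ± 0.23. Dgat2, which completes triglycerides, fell by 0.73 ± 0.12, with 129, 149, 139 and 126 RPKM in KO livers, against 197, 253, 244 and 208 RPKM in WT livers.

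Handling of stored and imported fat gave 6 rises and 7 falls of 22 tested genes (7 and 5 on the deposited scale). Lipe, hormone-sensitive lipase, was at 9.12, 9.47, 10.6 and 9.36 RPKM in KO livers, against 3.68, 4.74, 4.94 and 5.19 RPKM in WT livers (1.07 ± 0.14). Fabp1, the liver fatty acid-binding protein, was at 1663, 3436, 2531 and 3115 RPKM in KO livers, against 7712, 6029, 4718 and 5756 RPKM in WT livers (-1.20 ± 0.24). Targets of PPAR-alpha with peroxisomal oxidation and ketogenesis gave 3 rises and 9 falls of 27 (8 and 3 on the deposited scale). The falls numbered 3 without WT_D03_2 or WT_D04_2 and 5 without KO_D04_1, and the rises 5 without KO_D03_1. Ehhadh, a bifunctional enzyme of peroxisomal oxidation, fell by 1.62 ± 0.29 to 107, 318, 269.6 and 306 RPKM in KO livers, against 463, 804, 836 and 791 RPKM in WT livers. Mitochondrial fatty acid oxidation gave 6 rises and 4 falls of 24 (15 and 1 on the deposited scale), with 2 rises without WT_D04_1. Etfdh, the flavoprotein dehydrogenase that reduces ubiquinone, was at 45.3, 54.6, 41.7 and 42.6 RPKM in KO livers, against 118, 111, 112 and 115 RPKM in WT livers (-1.31 ± 0.09). None of the genes named here overlapped.

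The 2 kinds of ribosome differed in their counts. Mitochondrial ribosomal protein genes gave 29 rises and 5 falls among 77 tested (49 and 2 on the deposited scale), with 8 falls without KO_D03_2. Within the marks, 16 rose in the B_1 and 25 in the B_2 libraries. Mrpl38 was at 55.6, 60.2, 64.8 and 69.4 RPKM in KO livers, against 32.2, 32.3, 29.5 and 29.9 RPKM in WT livers (1.01 ± 0.06, adjusted p = 2.75e-11). Mrps18b (1.27 ± 0.10), Mrpl11 (1.19 ± 0.09) and Mrpl19 (0.87 ± 0.07) rose likewise. Cytosolic ribosomal protein genes gave no rise and 26 falls among 79 tested, but 18 rises and 2 falls on the deposited scale, so their direction turned with the scaling. Without WT_D03_1 or without KO_D04_1, 16 fell, and within the marks 4 fell in B_1 and 9 in B_2. Rpl35, a protein of the large subunit, fell by 0.54 ± 0.10, a call that was lost on the deposited scale.

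Factors that build ribosomes gave 18 rises and 4 falls of 38 tested (30 and 1 on the deposited scale). The falls numbered 2 without WT_D03_1 or without WT_D04_1. Utp20, a component of the complex that processes small-subunit RNA, was at 4.97, 4.36, 5.15 and 5.19 RPKM in KO livers, against 2.26, 2.39, 1.89 and 1.90 RPKM in WT livers (1.22 ± 0.09). Rrp1 fell by 0.71 ± 0.07. Among tRNA synthetases, 13 of 36 rose and 8 fell (19 and 1 on the deposited scale), with 8 rises without WT_D03_2, KO_D04_2 or WT_D04_1. The mitochondrial enzymes Sars2 (1.38 ± 0.13) and Yars2 (1.08 ± 0.10) rose while Vars2 (-1.05 ± 0.12) fell.

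Among the respiratory chain and ATP synthase genes, 12 of 78 fell and 6 rose (5 and 23 on the deposited scale). Both shares were under those of all tested genes, yet a few subunits moved strongly. The falls of this list numbered 8 without KO_D03_1 or KO_D04_1 and 17 without KO_D03_2. Ndufa3, a subunit of complex I, was at 45.3, 72.2, 20.03 and 31.1 RPKM in KO livers, against 118, 130.4, 105 and 129.6 RPKM in WT livers (-1.67 ± 0.17). Atp5d, a subunit of ATP synthase, was at 93.0, 131, 66.5 and 73.8 RPKM in KO livers, against 164, 182, 167 and 170.3 RPKM in WT livers (-0.96 ± 0.14). In both genes the KO values of day 4 lay below those of day 3, and all lay below WT. Mitochondrial carriers gave 10 rises and 11 falls of 37 (15 and 6 on the deposited scale), with the aspartate-glutamate carrier Slc25a12 at 4.15, 4.09, 3.15 and 3.48 RPKM in KO livers, against 7.97, 7.91, 7.86 and 8.19 RPKM in WT livers (-1.11 ± 0.08).

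**Figure D3:**
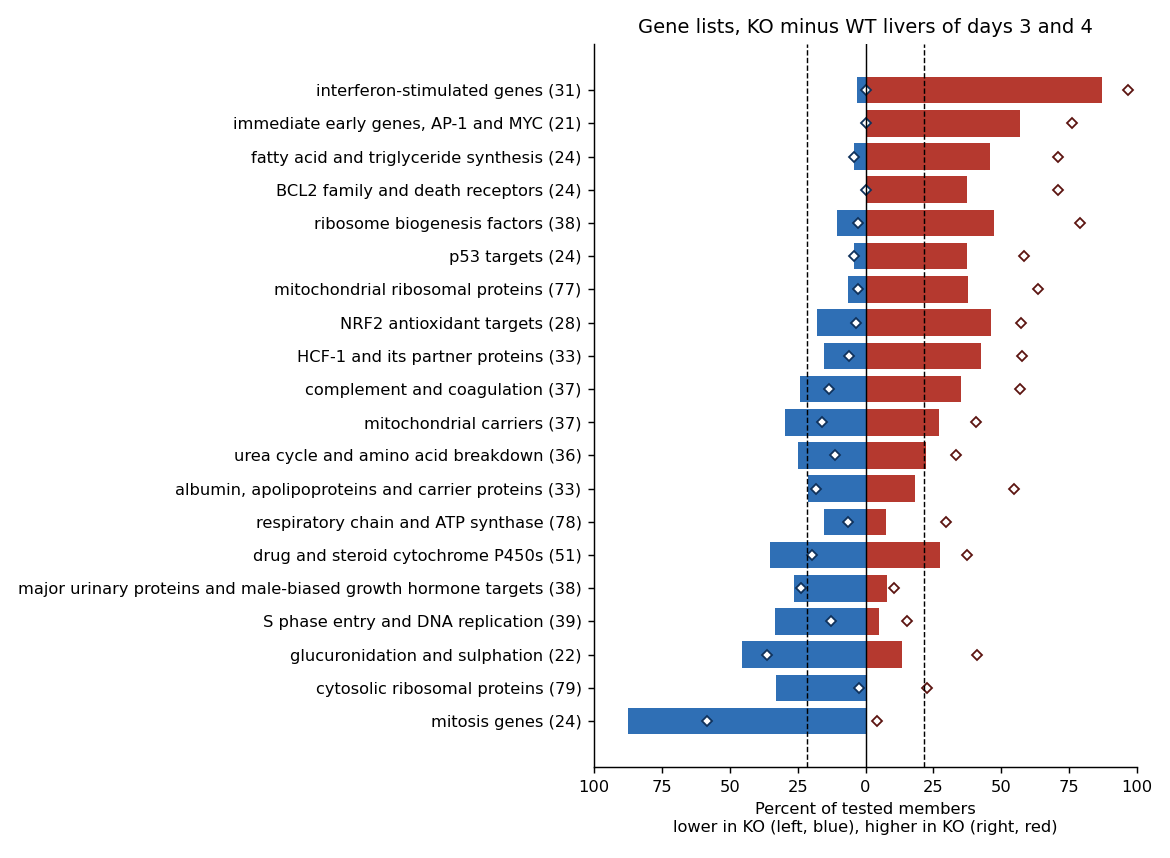
For 20 gene lists, with the number of tested members in brackets, bars give the percent of members that fell (left, blue) and rose (right, red) in KO livers, and diamonds give the same on the deposited scale. Dashed lines mark 21.6% on each side, the share of all tested genes that rose and that fell; interferon-stimulated genes lie farthest right and mitosis genes farthest left.

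A further set of genes was lost stepwise over these days. Among the 2233 fallen genes, 126 were lower again on days 5 and 6 by the test of that step, a comparison that uses the same libraries of days 3 and 4. Mmachc, which processes vitamin B12 inside the cell and is a known target of THAP11 and HCF-1, was at 1.65, 2.47, 0.479 and 0.673 RPKM in KO livers, against 7.68, 7.65, 7.65 and 7.88 RPKM in WT livers (-2.85 ± 0.19, adjusted p = 3.33e-11). Its mean in KO livers was 7.14 RPKM on day 2 and 0.342 RPKM on day 5, against 8.13 and 8.02 RPKM in WT livers. Its difference changed by -2.77 ± 0.26 between days 1 to 2 and days 3 to 4, and by a further -2.18 ± 0.26 to days 5 and 6.

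Thtpa, a thiamine triphosphatase, followed the same order, at 4.71, 6.34, 2.66 and 2.52 RPKM in KO livers, against 9.14, 8.73, 10.0 and 9.74 RPKM in WT livers (-1.32 ± 0.11). Its further step to days 5 and 6 was -2.22 ± 0.16 (adjusted p = 6.3e-09). Clpb, a mitochondrial disaggregase, was at 3.78, 5.99, 1.41 and 2.24 RPKM in KO livers, against 7.41, 8.34, 7.14 and 7.90 RPKM in WT livers, and stepped down by -2.81 ± 0.28 to days 5 and 6. Sssca1 and Ndufaf3, an assembly factor of complex I, gave steps of -2.10 ± 0.28 and -2.16 ± 0.31. The unnamed transcript 0610011F06Rik measured 25.9, 51.1, 12.6 and 16.6 RPKM in KO livers, against 99.8, 110.3, 80.2 and 105 RPKM in WT livers, with a step of -2.45 ± 0.24. For all these genes the 4 KO libraries lay below the 4 WT libraries.

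Slc35b4, a transporter of nucleotide sugars, was the single gene to pass the test of a change between day 3 and day 4 (1 of 10343 tested, 0.00967%; 398 had an unadjusted limma p under 0.05). It was at 5.12, 4.34, 1.95 and 1.75 RPKM in KO livers, against 8.79, 8.64, 6.85 and 9.64 RPKM in WT livers. The difference was -0.89 on day 3 and -2.14 on day 4, a change of -1.25 ± 0.20 (adjusted p = 0.0209). The call was lost on the deposited scale (adjusted p = 0.99974), with only the libraries of these days (0.99746) and with the replicate block (0.181). It was also lost without KO_D03_1 (adjusted p = 0.0749), WT_D03_1 (0.147), WT_D03_2 (0.192), KO_D04_2 (0.171) or WT_D04_2 (0.272). Over all tested genes, 14 passed without KO_D03_2 and 2 without KO_D04_1.

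Promoter sequences of the stepwise losses are shown because many share one stretch of letters, the element known to be bound by THAP11 and ZNF143, both partners of HCF-1. The search took ACTACA, any 2 bases and then TCCCA on either strand between 250 bases before and 50 bases after the RefSeq start (GRCm38.p6), where 8320 tested genes matched a promoter by symbol. It was present in 30 of the 105 matched genes that fell and fell further on days 5 and 6 (28.6%), in 92 of 1788 fallen genes (5.15%), in 77 of 1831 risen genes (4.21%), in 334 of all 8320 tested genes (4.01%) and in 484 of 32851 promoters of the table (1.47%). The letters AAGATG followed directly by GCGGC, known for YY1, were in 0 of the 105 and 2.08% of tested genes, and CCGGAAGTG, known for GABP, in 3.81% and 5.44%. These shares describe letters in a window, and binding was not measured. The stretches below hold the match with 30 bases before it and up to 30 after it, ending at the base before the start site in Mmachc, Thtpa and Slc35b4 and short of it in Uqcr10 and Atp5d, 5′ to 3′ on the strand of the gene, with the match in capitals. They lie at chr4:116708386-116708440 (minus) for Mmachc, chr14:55094724-55094783 (plus) for Thtpa, chr6:34177055-34177122 (minus) for Slc35b4, chr11:4704360-4704432 (minus) for Uqcr10 and chr10:80142163-80142235 (plus) for Atp5d. Uqcr10, a subunit of complex III with a difference of -0.91, was chosen after its values were seen.
Mmachc: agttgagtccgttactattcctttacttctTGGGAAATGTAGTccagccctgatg
Thtpa: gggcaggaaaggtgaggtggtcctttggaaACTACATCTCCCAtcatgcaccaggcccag
Slc35b4: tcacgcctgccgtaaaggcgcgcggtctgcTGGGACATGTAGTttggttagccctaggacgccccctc
Uqcr10: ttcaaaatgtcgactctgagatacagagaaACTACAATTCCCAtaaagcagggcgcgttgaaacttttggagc
Atp5d: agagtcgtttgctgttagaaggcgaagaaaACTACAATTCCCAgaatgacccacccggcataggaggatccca

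The match began 25 bases before the start in Mmachc, 30 in Thtpa, 38 in Slc35b4, 58 in Uqcr10 and 82 in Atp5d. It stood in the reverse direction in Mmachc and Slc35b4. The Mmachc stretch also lies in the promoter of its divergent neighbour Ccdc163, which was higher in KO livers on days 1 and 2 (1.25) and lower on days 3 and 4. Ccdc163 was at 0.946, 1.65, 0.666 and 0.585 RPKM in KO livers, against 2.75, 2.19, 2.13 and 2.82 RPKM in WT livers (-1.47 ± 0.19), a change of -2.72 ± 0.26 from days 1 and 2.

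**Figure D4:**
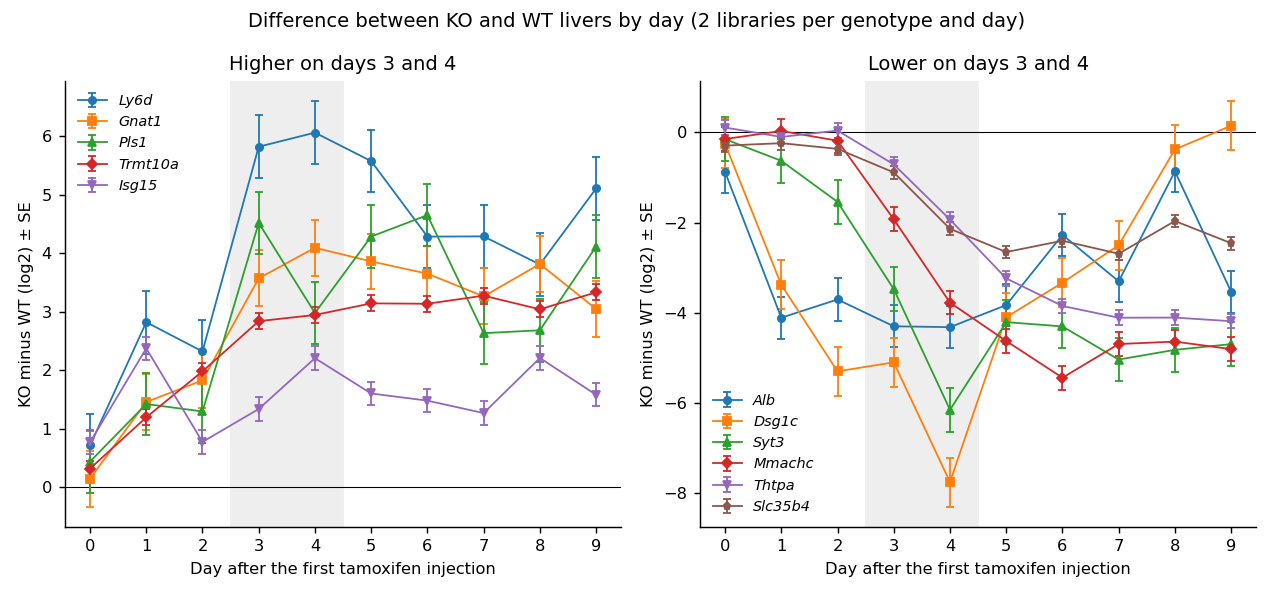
KO minus WT difference (log2, ± SE, 2 libraries per genotype and day) on days 0 to 9 for 5 genes that were higher (left) and 6 that were lower (right) on days 3 and 4, the shaded days. Alb and Dsg1c are low from day 1, while Mmachc and Thtpa leave 0 after day 2 and Slc35b4, slightly below 0 before, drops further; the Mmachc difference over days 3 and 4 is -2.85.

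Mitosis genes were lower in KO livers as a group. Of 24 tested, 21 fell and none rose (14 and 1 on the deposited scale), with a median of -1.07. Of the 24, 2 were tested only through their WT level, Nek2 among them. Among all 47 genes of the list, 32 fell and none rose without a filter on low values, and in 29 the 4 KO libraries lay below the 4 WT libraries. Without that filter 2603 genes fell and 2489 rose among the 15616 genes of the table. The share without overlap was taken only over tested genes (20.3% downward), so it is no exact match for the 29. Falls among the 24 numbered 14 without WT_D03_1, 14 within the B_1 libraries and 2 within the B_2 libraries. Nek2, a centrosome kinase, was at 0.426, 0.475, 0.368 and 0.684 RPKM in KO livers, against 3.88, 1.70, 2.79 and 3.07 RPKM in WT livers (-2.53 ± 0.27, adjusted p = 6.82e-08). Ccnb2, a mitotic cyclin, was at 0.957, 0.844, 0.813 and 1.04 RPKM in KO livers, against 3.88, 1.57, 3.05 and 2.88 RPKM in WT livers (-1.57 ± 0.29). Neither overlapped.

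The summed level of the 47 mitosis genes was 49.6 to 64.1 RPKM in KO livers and 71.0 to 139.7 RPKM in WT livers on days 3 and 4. On days 1 and 2 it was 24.8 to 42.7 RPKM in KO livers, against 21.2 to 37.0 RPKM in WT livers, and on day 0 it was 35.1 to 37.2 RPKM in KO livers, against 32.8 to 34.04 RPKM in WT livers. On days 5 and 6 it reached 160.7 to 202.1 RPKM in WT livers, with 44.6 to 60.0 RPKM in KO livers. The summed level thus stood above its day 0 range in both genotypes on days 3 and 4, and more so in WT. Of the 24 tested mitosis genes, 16 had a lower difference than on days 1 and 2, and none a higher one. Over all tested genes 3.66% had a lower and 1.93% a higher one. Cdc20, which activates the anaphase-promoting complex, was at 0.505, 0.960, 0.794 and 1.35 RPKM in KO livers, against 7.80, 1.29, 4.11 and 4.197 RPKM in WT livers. Its change from days 1 and 2 was -3.45 ± 0.71 (adjusted p = 0.00629), -2.80 without WT_D03_1 and -4.10 without WT_D03_2.

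**Figure D5:**
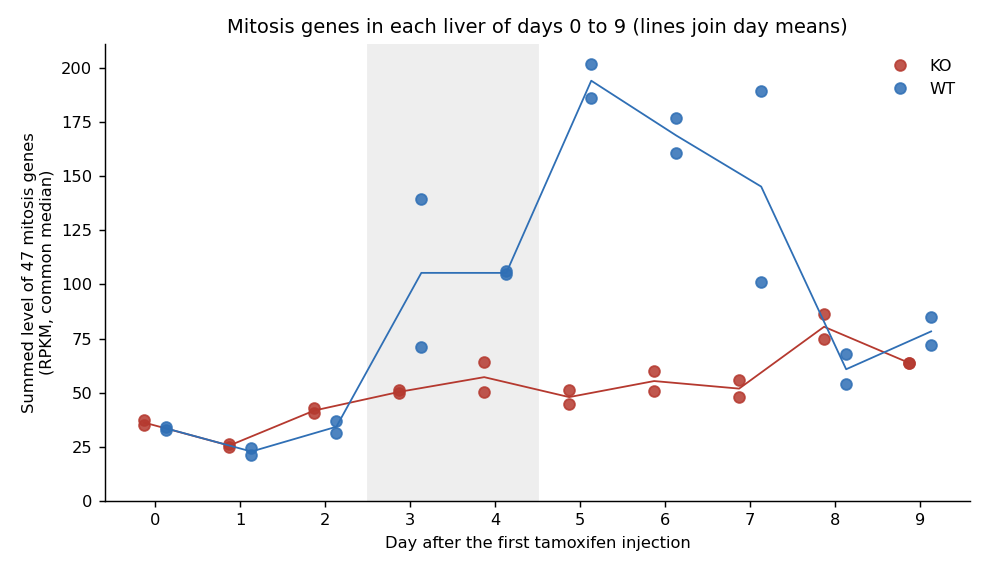
Summed level (RPKM scaled to a common median) of 47 mitosis genes in each KO and WT library, by day after the first injection. On days 3 and 4 the 4 KO livers lie between 49.6 and 64.1, all below the 4 WT livers, which lie between 71.0 and 139.7.

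Genes of S phase entry and DNA replication gave 13 falls and 2 rises of 39 tested (5 and 6 on the deposited scale). E2f1, a cell cycle transcription factor that binds HCF-1, was at 0.860, 0.768, 0.823 and 0.804 RPKM in KO livers, against 1.93, 1.87, 1.72 and 1.81 RPKM in WT livers (-1.17 ± 0.16). Mcm10, a replication initiation factor, fell by 2.23 ± 0.30, with 4.02, 1.48, 1.62 and 1.79 RPKM in KO livers, against 12.1, 9.73, 7.07 and 10.1 RPKM in WT livers. Ccnd1, cyclin D1, which drives entry into the cycle, went the other way, at 39.1, 60.1, 47.2 and 65.0 RPKM in KO livers, against 29.1, 24.9, 16.6 and 20.7 RPKM in WT livers (1.22 ± 0.19). All 3 genes were free of overlap.

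Among genes for HCF-1 and its partner proteins, 14 rose, 5 fell and 14 did not pass of 33 tested (19 and 2 on the deposited scale). Yy1 was at 26.3, 23.8, 27.9 and 28.2 RPKM in KO livers, against 14.9, 13.5, 15.7 and 15.01 RPKM in WT livers (0.85 ± 0.07, adjusted p = 2.01e-09). Asxl1, a chromatin regulator, rose by 0.66 ± 0.09. Zfp143 (0.65 ± 0.09) and Gabpa (0.62 ± 0.11), which encode the partners ZNF143 and GABP alpha and were chosen after their values were seen, rose as well.

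Interferon-stimulated genes rose nearly throughout. Of 31 tested, 27 rose and 1, Iigp1, fell (30 and 0 on the deposited scale), with a median of 0.80. The rises numbered 20 to 25 when 1 library was left out, 11 within the B_1 libraries and 14 within the B_2 libraries. The fall of Iigp1 was lost without KO_D03_1, KO_D03_2, WT_D03_1, KO_D04_1 or WT_D04_1. Isg15, a ubiquitin-like protein induced by interferon, was at 22.8, 20.9, 48.6 and 49.9 RPKM in KO livers, against 8.76, 8.52, 9.84 and 11.6 RPKM in WT livers (1.77 ± 0.14, adjusted p = 9.52e-10). Xaf1, linked to cell death, rose by 1.43 ± 0.17. The list's median was already 0.75 on days 1 and 2 and 0.48 on day 0. No member's difference changed between days 1 to 2 and days 3 to 4 by the test. Only 5.6% of all tested genes passed that test, so a count of 0 among 31 does not set the list apart.

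Subunits of the proteasome that interferon induces rose with them. Psmb9 of the immunoproteasome was at 31.3, 39.5, 46.2 and 51.7 RPKM in KO livers, against 12.2, 14.7, 17.1 and 18.1 RPKM in WT livers (1.43 ± 0.13). The activator subunits Psme1 (0.73 ± 0.08) and Psme2 (0.75 ± 0.10) and the constitutive Psmb6 (0.85 ± 0.09) rose also. In all 45 tested proteasome genes, 14 rose (31.1%) and 4 fell (8.89%; 34 and 0 on the deposited scale). The rises numbered 9 without KO_D03_2, 8 without WT_D03_2, and 7 without KO_D04_2 or without WT_D04_1. The falls numbered 2 without WT_D03_1, KO_D04_1 or WT_D04_2.

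Immediate early genes, transcription factors that respond within minutes to signals and stress, gave 12 rises and no fall among 21 tested (16 and 0 on the deposited scale), with a median of 0.62. Within the B_1 libraries 3 rose and within the B_2 libraries 4. The rises numbered 8 without any 1 of KO_D03_1, WT_D03_1 or KO_D04_2. Fos was at 1.61, 1.76, 0.821 and 1.33 RPKM in KO livers, against 0.360, 0.607, 0.260 and 0.187 RPKM in WT livers (2.04 ± 0.50, adjusted p = 0.00205). It was tested only through its KO level. On day 0 its difference was 2.23 ± 0.71 and did not pass (adjusted p = 0.35), and the median of the list was 0.33. Mycl, a MYC family factor, was at 2.05, 5.53, 5.92 and 4.35 RPKM in KO livers, against 0.749, 1.60, 1.52 and 2.04 RPKM in WT livers (1.57 ± 0.27). Both genes separated the genotypes, Mycl by a narrow margin.

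Targets of p53 gave 9 rises (37.5%) and 1 fall (4.17%) of 24 tested (14 and 1 on the deposited scale), with 2 falls without KO_D03_2 or KO_D04_2. Ccng1 was at 12.9, 19.3, 27.2 and 22.5 RPKM in KO livers, against 9.61, 9.28, 12.1 and 10.3 RPKM in WT livers (0.95 ± 0.14). Aen, an exonuclease of apoptosis, rose by 0.98 ± 0.14, Trp53 itself by 0.74 ± 0.11, and Ei24 fell by 0.72 ± 0.11. On day 0 the Trp53 difference was 0.48 ± 0.16. The BCL2 family and death receptors gave 9 rises and no fall among 24 tested (17 and 0 on the deposited scale), led by the receptor Tnfrsf1a at 61.0, 48.4, 49.0 and 70.0 RPKM in KO livers, against 35.2, 34.01, 35.2 and 36.6 RPKM in WT livers (0.68 ± 0.11).

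NRF2 antioxidant targets gave 13 rises and 5 falls of 28 tested (16 and 1 on the deposited scale). The falls numbered 1 without KO_D03_1 and 3 without any 1 of WT_D03_2, KO_D04_1, KO_D04_2, WT_D04_1 or WT_D04_2. Nqo1, a quinone reductase, was at 13.4, 23.0, 21.3 and 27.3 RPKM in KO livers, against 6.31, 5.52, 5.50 and 5.74 RPKM in WT livers (1.84 ± 0.21). Ephx1, microsomal epoxide hydrolase, was at 228, 352, 417 and 489 RPKM in KO livers, against 144, 129, 93.8 and 144 RPKM in WT livers (1.51 ± 0.16). Neither overlapped. Glutathione transferase Gstm3 was at 38.6, 308, 316 and 243 RPKM in KO livers, against 63.8, 69.7, 48.7 and 77.3 RPKM in WT livers. Its difference of 1.44 ± 0.38 was 2.19 without KO_D03_1, whose value lay below all WT values, and 0.69 without KO_D03_2. Close Gstm copies can share reads.

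Markers of other cells in the liver differed in part between the genotypes. Recruited and lipid-associated macrophage genes gave 7 rises and 1 fall of 15 tested (11 and 1 on the deposited scale), and their summed level was 480.6 to 538 RPKM in KO livers, against 319 to 376 RPKM in WT livers. Their median difference was 0.56, but it was already 0.44 on day 0 and 0.37 on days 1 and 2. Against day 0, the difference of 1 member was higher and that of 1 lower by the test, and none changed from days 1 and 2. Cd9, a tetraspanin that hepatocytes also express, was at 23.1, 41.4, 45.3 and 43.0 RPKM in KO livers, against 13.6, 13.6, 16.02 and 15.4 RPKM in WT livers (1.34 ± 0.22). Resident Kupffer cell genes gave 6 rises and 1 fall of 20 (16 and 1 on the deposited scale), but 1 rise without KO_D03_1, WT_D03_2 or WT_D04_2, 2 without KO_D04_1, 3 without KO_D04_2 or WT_D04_1, and 13 without KO_D03_2. Their summed level was 629.9 to 997 RPKM in KO livers, against 592 to 748 RPKM in WT livers. The median difference of these Kupffer cell genes was 0.54, against 0.26 on day 0 and 0.29 on days 1 and 2. Of 4 tested lymphocyte genes, Cd4 rose (1.83 ± 0.24), a share of 25% against 21.6% of all tested genes. In this list 1 of the 4 was tested only through its KO level, and the median difference was 0.05. The summed level of lymphocyte genes overlapped, at 13.2 to 19.7 RPKM in KO livers and 12.4 to 16.4 RPKM in WT livers. Of 28 tested endothelial genes 1 rose and 5 fell (2 and 0 on the deposited scale). None rose without any 1 of KO_D03_1, WT_D03_1, KO_D04_1, KO_D04_2 or WT_D04_1. The falls numbered 2 without KO_D03_2, WT_D03_1, WT_D03_2, KO_D04_2 or WT_D04_2, and 3 without KO_D04_1 or WT_D04_1. Of 32 stellate cell and matrix genes 2 rose (17 on the deposited scale), and 1 rose without any 1 library other than KO_D03_1. The summed level of neutrophil genes was 23.7 to 1434 RPKM in KO livers, against 38.6 to 104 RPKM in WT livers, with its maximum in KO_D03_1. Red cell genes summed to 6.05 to 9.70 RPKM in KO livers, against 13.3 to 23.1 RPKM in WT livers. What these cells contribute to the changes above was not tested.

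Of 9 tested duct cell genes, 2 rose and 1 fell (4 and 0 on the deposited scale), and the falls numbered 2 without KO_D04_1 or WT_D04_1. Of 4 tested keratins, 2 rose and 1 fell on both scales. Sox9, a factor of bile duct cells, was at 3.05, 3.57, 3.67 and 3.47 RPKM in KO livers, against 1.36, 1.14, 1.19 and 0.921 RPKM in WT livers (1.59 ± 0.16). The simple-epithelium keratins Krt8 (0.82 ± 0.11) and Krt18 (0.65 ± 0.12) rose, each without overlap. Krt8 was at 111, 138, 123 and 153 RPKM in KO livers, against 79.6, 70.8, 69.2 and 76.9 RPKM in WT livers.

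Genes known from pancreas, fat, gallbladder and squamous epithelium were checked for tissue carried over at collection. Of 18 in the table, 6 were tested, 3 of them only through their WT level, and 5 fell (Car3, Krt4, Dsg1c, Adh7 and Hopx). The summed level of the list was 117 to 211 RPKM in KO livers, against 760.1 to 952 RPKM in WT livers. In WT livers Krt4, Dsg1c, Adh7 and Hopx did not exceed 9.71, 10.7, 1.76 and 60.1 RPKM, so most of the sum lay in other members. Whether these transcripts came from carried-over tissue or from liver cells was not tested. Pancreatic Cela3b, Try4, Pnlip and Ctrb1, the fat marker Plin1 and squamous Krt5 were listed at 0 in all 8 libraries. Adipoq did not exceed 0.0369 RPKM in KO livers and 0.0356 RPKM in WT livers.

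Compared with the injection days, part of the pattern was already present and part was added. Of the 2231 rises, 774 had also risen on days 1 and 2, when 9.49% of tested genes rose. Of the 2233 falls, 696 had also fallen then, when 7.95% of tested genes fell. On day 0 the test gave 9 calls (0.087%), 3 higher (0.029%) and 6 lower (0.058%). On days 5 and 6, when 50.2% of tested genes differed, 1776 of the rises and 1797 of the falls were called in the same direction (25.1% and 25% of all tested genes rose and fell then). The step from days 1 to 2 to days 3 to 4 itself passed for 200 genes upward and 379 downward (579, 5.6% of tested genes; 1.93% upward and 3.66% downward). Without WT_D03_2 this total was 365, and without WT_D04_1 it was 383. Upward steps included Ly6d (3.37 ± 0.54), Bhlha15 (3.19 ± 0.69), Scara5 (2.45 ± 0.59), Pls1 (2.39 ± 0.53) and Gnat1 (2.19 ± 0.48). With quantile normalization the steps of Bhlha15 (5.09, adjusted p = 0.0655) and Syt3 (-5.89, adjusted p = 0.0682) did not pass. The Scara5 step lost its call without WT_D03_2 (adjusted p = 0.0537). Downward steps included those of Syt3 (-3.73 ± 0.49), Cdc20, Plekhb1 (-2.89 ± 0.44), Mmachc and Ccdc163.

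Fewer genes moved on between these days and days 5 and 6: 75 differences became higher and 199 lower (274, 2.65% of tested genes; 0.725% higher and 1.92% lower). The total was 182 without WT_D03_1, 171 without WT_D03_2, 168 without KO_D04_2, 146 without WT_D04_1 and 176 without WT_D04_2. The largest downward steps were those of Clpb, 0610011F06Rik, Thtpa, Mmachc, Ndufaf3 and Sssca1 given above. Upward, the difference of Dsg1c moved by 2.71 ± 0.54 and that of E330011O21Rik by 2.28 ± 0.27. With a pseudocount of 1 RPKM the Dsg1c step was 0.75 and did not pass (adjusted p = 0.24). E330011O21Rik was at 1.04, 1.05, 1.71 and 2.02 RPKM in KO livers, against 2.02, 2.66, 3.21 and 3.30 RPKM in WT livers, and averaged 9.34 RPKM in KO livers on day 6, against 2.42 RPKM in WT livers. Against day 0, the difference changed for 1545 genes (14.9%), 695 upward (6.72%) and 850 downward (8.22%). Bhlha15 led these upward (6.79 ± 0.84), a gene that had been lower in KO livers on day 0 (-3.81, adjusted p = 0.019), and Dsg1c downward (-6.17 ± 0.66).

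Het females, with the Cre, 1 lox-flanked allele and 1 intact allele, gave 1 library on each of days 3 and 4 and no WT females to set them against, so only their levels are given. Ly6d was at 15.9 and 39.2 RPKM, Trmt10a at 3.74 and 2.70 RPKM, Mmachc at 5.70 and 7.37 RPKM and Thtpa at 6.78 and 7.63 RPKM. Hcfc1 was at 9.87 and 8.04 RPKM and Alb at 23424 and 3327 RPKM. Sex differs between these libraries and the males, and the male-biased Hsd3b5 was at 0.0859 and 0.0168 RPKM.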

How the data were processed

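Poly(A) RNA of single livers was sequenced as stranded TruSeq libraries, per the labels' protocols. The authors deposited 1 table of log2 RPKM per gene and library, with a floor of -13.4557 standing for 0 and 5.02% of values at it. Per the submitters' processing notes, the mm9 build, TopHat2 2.0.13, Bowtie 1.1.2 and edgeR were used, with no roles stated. The table holds no counts, so a planned count test was replaced by limma 3.58.1 in R 4.3.3. Read totals were estimated from whole-read steps of weakly expressed genes (98.2% of values of 359 genes within 0.02 of a whole read).

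Each library was centred on the median of tested genes. The fit used the 40 male libraries of days 0 to 9, 1 mean per genotype and day, with the trended variance of eBayes, two-sided tests and Benjamini-Hochberg adjustment at 0.05. It was tested on simulated data. Genes were named by rule: Hcfc1; the 15 largest rises and falls with separated genotypes whose higher mean reached 1 RPKM; the 6 largest each way in the other comparisons; and up to 4 members per list with the smallest p (or up to 2 as values). The members and the 55 gene lists were chosen with earlier results of these data known. Promoters came from RefSeq (GRCm38.p6), and mm9 positions from the annotation matched to 15041 genes (96.3%). Alternatives were scaling, filter, pseudocount, variance model, replicate block, libraries used, the name mark and leaving out each library. Some genes that the rule names are not reported here.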

Additional observations from a re-analysis of the deposited data

Results flagged for a closer look

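In 3 of 62 groups of 4 libraries tested, 1 library lay far from the others of its genotype, where chance gives about 1 in 20. Each time it was the WT library of day 3 replicate 1: G6pdx at 2.19 RPKM, Dbp at 1.86 RPKM and Hsd3b5 at 81.2 RPKM.

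The KO minus WT difference itself changed with time for 579 genes from days 1 to 2, 274 genes to days 5 and 6, 1545 genes from day 0 and 1 gene between day 3 and day 4, each by limma with Benjamini-Hochberg adjustment. From days 1 to 2, the change was 3.37 for Ly6d, 3.19 for Bhlha15, 2.46 for Clic3, 2.45 for Scara5, 2.39 for Pls1 and 2.19 for Gnat1. In the same step it was -3.73 for Syt3, -3.45 for Cdc20, -2.89 for Plekhb1, -2.77 for Mmachc, -2.72 for Ccdc163 and -2.61 for Pbk.

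To days 5 and 6, the change was 3.06 for Cyp4a12b, 2.71 for Dsg1c, 2.28 for E330011O21Rik, 1.88 for Car1, 1.61 for Slc17a8 and 1.50 for 4931408D14Rik. Downward it was -2.81 for Clpb, -2.45 for 0610011F06Rik, -2.22 for Thtpa, -2.18 for Mmachc, -2.16 for Ndufaf3 and -2.10 for Sssca1. From day 0, the change was 6.79 for Bhlha15, 5.23 for Ly6d, 4.51 for Flrt1, 4.30 for Orm3, 3.87 for Dbp and 3.69 for Gnat1, and -6.17 for Dsg1c, -5.44 for Krt4, -4.66 for Syt3, -4.26 for Prtn3, -4.18 for Adh7 and -4.07 for Hopx. Between days 3 and 4, Slc35b4 changed by -1.25.

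Some of these calls were lost when 1 library was left out, among them those of Car1, Clic3, Cyp4a12b, Pbk, Prtn3, Scara5, Slc17a8 and Slc35b4, and that of Dbp from day 0. Quantile normalization ended the calls of Pbk (-0.74, adjusted p = 0.848), Krt4 from day 0 (-3.69, 0.223), Bhlha15 (5.09, 0.0655) and Syt3 (-5.89, 0.0682) from days 1 to 2, and Prtn3 (-3.67, 0.0541). The deposited scale ended those of 4931408D14Rik (1.39, 0.0567), Car1, Cyp4a12b, Slc17a8, Pbk and Slc35b4, and a pseudocount of 1 RPKM those of Dsg1c to days 5 and 6 (0.75, 0.24), Cyp4a12b (1.71) and Prtn3 (-2.51). The change of Prtn3 ran from -5.29 without KO_D04_2 to -3.23 without KO_D04_1, with -5.13 without KO_D03_1 and -3.39 without KO_D03_2. That of Orm3 was 3.56 without WT_D03_1 and 5.04 without WT_D03_2.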

How the results depend on the processing

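Centring set the balance of the directions: on the deposited scale 4469 genes were higher and 745 lower, and 745 falls held on both scales. Within the name marks, totals were 1911 in B_1 (896 higher, 1015 lower) and 2407 in B_2 (1257 higher, 1150 lower), each from fewer libraries. On the deposited scale the step from days 1 to 2 gave 181 genes and the step to days 5 and 6 gave 93; with only the libraries of the days compared the step to days 5 and 6 gave 123. The change between days 3 and 4 gave 0 genes on the deposited scale, with only the compared libraries and with the replicate block, 2 without the variance trend, 3 with a pseudocount of 1 RPKM, and 4 with a pseudocount of 0.1 RPKM or quantile normalization. Deviations of same-numbered KO and WT libraries correlated at 0.04 to 0.26, over 0.1 on 7 of 10 days, so the numbers were not taken as pairs, though all 10 values were positive and the name mark follows the number on most days. With the replicate block 2474 genes were higher and 2419 lower, and 4 of 252 gene calls were lost. Leaving out 1 library gave 3789 to 4248 genes on days 3 and 4 (1881 to 2133 higher, 1908 to 2115 lower), 365 to 562 for the step from days 1 to 2, 146 to 289 for the step to days 5 and 6, 1276 to 1510 against day 0, and 0 to 14 between days 3 and 4. Of 5810 gene values under all alternatives, 5386 kept their call or, where untested, their value, 372 lost the call, 52 moved and 0 reversed. The untested ones came from replicates 1 alone and from replicates 2 alone. In each of these, 189 lay within about 1 standard error of the main value and 26 moved farther. The causes were not tested. Below about 1 RPKM, levels rest on few reads.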
